A study of Homo sapiens with 24 samples.

Results

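MB468res-R8 cells (R8) were compared with their parental line, MB468, while both grew in medium with methionine (Met). The comparison took the 6 libraries of the series' 24 that were collected at 0 h, 3 of each line, and the 26645 gene entries of the count table, of which 14741 held enough counts to be tested. MB468 is short for MDA-MB-468, an established triple-negative breast cancer line that stops proliferating when Met is replaced by its precursor homocysteine (Hcy). R8 is 1 clone, derived by keeping MB468 in Hcy medium for a long period, that proliferates without Met, so a difference from MB468 is a difference of that clone. Both lines were in Met+ medium with 100 µM Met and 0 µM added Hcy, and the labels give neither an engineered allele nor a further treatment at 0 h. Poly(A) RNA with spike-in RNAs was sequenced, and counts per gene were used as the authors deposited them.

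Met is used for protein synthesis and, as S-adenosylmethionine, donates the methyl groups for DNA, histones, and phosphatidylcholine. The donor is left as homocysteine, which is remethylated to Met with a methyl group from folate or passed on to cysteine by transsulfuration. Many cancer lines, but few normal cells, stop dividing when Hcy takes the place of Met although they can make Met from it, which is called Met dependence. MB468 is a basal-type epithelial line that carries extra copies of EGFR, the epidermal growth factor receptor.

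The 6 libraries held 16111002 to 29075733 gene counts. Values below are normalized counts, which are counts scaled by edgeR's TMM factors to a common library size, and log2 fold changes are R8 minus MB468. A gene was called higher or lower in R8 at an adjusted p under 0.05 by the quasi-likelihood test of edgeR, adjusted after Benjamini and Hochberg over every tested gene. Over the 10693 genes with at least 5 CPM (counts scaled to a fixed library total), the median coefficient of variation between libraries was 4.07% in MB468 and 4.75% in R8. The labels do not say whether the libraries of a line came from separate cultures, so p-values measure the spread between these samples, which may be technical. Spike-ins took 0.213 ± 0.00999% (SD, n = 3) of the counts in MB468 and 0.261 ± 0.00983% (SD, n = 3) in R8, and the exact two-sided permutation p was 0.1, the smallest that 3 against 3 can give. With the spike-in totals as library sizes the median of all genes moved to -0.31 on the log2 scale, so every log2 fold change below is relative to the median gene and would be about 0.31 lower on that scale. The markers of the labelled cell type were present: all 14 breast epithelial identity genes were tested, among them EPCAM with 6895, 6743, and 6789 normalized counts in MB468 and 7481, 7448, and 7632 in R8 (log2 fold change 0.14, or -0.17 on the spike-in scale). Markers of other cell types were present in part, with 4 of 10 fibroblast, 6 of 10 endothelial, and 3 of 12 immune genes passing the filter on low counts. Some were well expressed. In the MB468 libraries after 0 h, the endothelial KDR lay between 3210 and 9070 normalized counts and the monocyte CD14 between 1340 and 3580. The macrophage CSF1R lay between 550 and 1040 in those of R8.

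At 0 h, 53.5% of the tested genes were called, 3895 (26.4%) higher and 3988 (27.1%) lower in R8. On the spike-in scale the split was 1144 higher and 6495 lower, which is 15% higher in place of 49.4%. Most differences were small: the median size among the called genes was 0.42 on the log2 scale, or 1.33-fold, and 82.0% of them differed less than 2-fold. At least 2-fold differences were found for 774 genes (5.25%) higher and 644 (4.37%) lower in R8. Large differences leaned to loss in R8, with 165 genes higher and 265 lower at a log2 fold change of at least 2, and 10 higher and 42 lower at 5 or more.

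**Figure D1:**
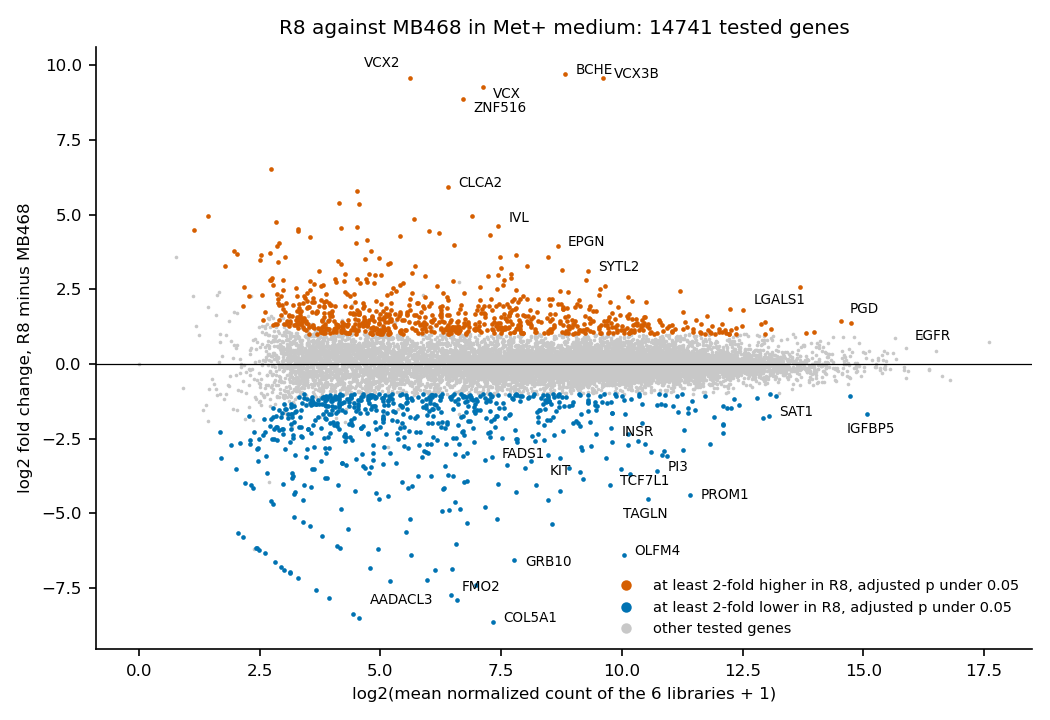
Each point is a tested gene, with the log2 of its mean normalized count plus 1 over the 6 libraries on the x axis and its log2 fold change (R8 minus MB468) on the y axis. Orange points are the 774 genes at least 2-fold higher in R8, blue points the 644 at least 2-fold lower, and grey points the other tested genes, with the most extreme values near 9.69 (BCHE) and -8.62 (COL5A1).

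A small set of genes was on in one line and at the limit of detection in the other. The rule was a call, at least 1 CPM on average in the line that expressed the gene, and at most 3 counts in total over the 3 libraries of the other. It found 25 genes, 7 on in R8 and 18 on in MB468. BCHE, the butyrylcholinesterase that splits choline esters, had 891, 993, and 836 normalized counts in the R8 libraries and 2.69, 0, and 0 in MB468. Set against 3 counts over the 3 MB468 libraries, BCHE was at least 931-fold higher in R8, the largest bound among the 25 genes. ZNF516, a zinc finger transcription factor, had 204, 232, and 188 normalized counts in R8 and 0, 0.797, and 0 in MB468, at least 214-fold higher. VCX and VCX2 belong to the variable charge family of chromosome X, which is normally expressed in testis. VCX had 236, 332, and 258 normalized counts in R8 and 0, 0, and 1.41 in MB468, and VCX2 had 103, 98.4, and 85.0 in R8 and 0 in all 3 MB468 libraries. VCX3B exceeded 3 counts over the MB468 libraries and missed the rule, but had 1513, 1772, and 1420 normalized counts in R8 and 1.80, 3.19, and 0 in MB468. These genes are near-identical copies, so how their reads divide among them is uncertain. VWA5A, HACD4, an enzyme of very long-chain fatty acid elongation, and the long noncoding RNA LOC101928304 made up the rest and were at least 33.3-fold to 45.6-fold higher.

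COL5A1, the alpha 1 chain of type V collagen, was the highest of the genes that R8 did not express, with 318, 343, and 298 normalized counts in MB468 and 0, 0, and 2.62 in R8, at least 311-fold lower. LOC101448202, a noncoding RNA whose annotated span overlaps the end of COL5A1 on chromosome 9, had 112, 146, and 107 in MB468 and 0, 0, and 2.62 in R8. The library kit does not mark strand, so reads of the overlapping pair cannot be told apart. AADACL3, of the arylacetamide deacetylase family, had 172, 222, and 176 normalized counts in MB468 and 0.793, 0, and 1.31 in R8, at least 185-fold lower. C1orf158, the next tested gene on chromosome 1, had 18, 12, and 16.9 in MB468 and 0 in every R8 library, below the level of the rule, and is named because its values were seen. FMO2, a flavin monooxygenase, had 142, 167, and 214 normalized counts in MB468 and 0, 0, and 2.62 in R8, at least 170-fold lower. ABHD12B was at least 134-fold lower, RHOJ, a small GTPase known from endothelium, at least 94.1-fold, and PARP8 at least 57.6-fold. PPARGC1A, the coactivator of mitochondrial biogenesis, had 63.7, 86.1, and 64.6 normalized counts in MB468 and 0, 0, and 1.31 in R8, at least 69.5-fold lower. FAM230C, GOLT1A, PCSK1N, TMEM213, CNTN5, RASL10B, IGSF5, LBP, LOC400043, and TCEAL8 completed the set at bounds of 51.7-fold down to 22.7-fold. GOLT1A, PCSK1N, LBP, and TCEAL8 had 0 counts in every R8 library at 0 h. C16orf70 had more than 3 counts over the R8 libraries and missed the rule, with 179, 183, and 160 normalized counts in MB468 and 0, 2.24, and 2.62 in R8 (log2 fold change -6.86).

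**Figure D2:**
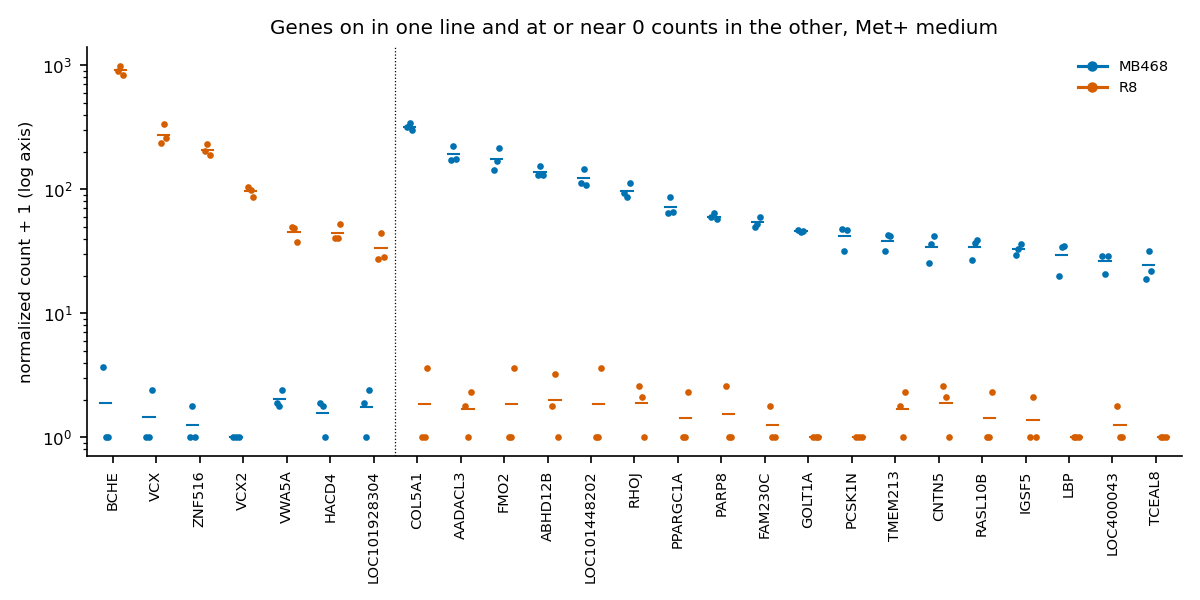
Normalized counts plus 1 (log axis) of the 25 genes on in one line only, with 1 point per library, blue for MB468 and orange for R8, and a bar at the mean of 3. The 7 genes left of the dotted line were on in R8, led by BCHE (836 to 993 normalized counts), and the 18 to the right were on in MB468, led by COL5A1 (298 to 343), while the other line stayed under 3 normalized counts throughout.

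The promoters of these genes differed in their CG dinucleotides, the pairs at which DNA is methylated in human cells. The 7 windows below are from RefSeq on GRCh38.p14 and run from 250 bases before to 50 after an annotated start, 5′ to 3′ on the gene's strand, with CG in capitals. They are shown because they hold the highest on/off genes of each direction and the VCX copies. The first 5 belong to genes on in R8, at chrX:7842921-7843220 (plus strand), chrX:8171218-8171517 (minus), chrX:8464580-8464879 (plus), chr3:165837374-165837673 (minus), and chr18:76495193-76495492 (minus). The last 2 belong to genes on in MB468, at chr9:134641553-134641852 (plus) and chr1:12715860-12716159 (plus).
VCX: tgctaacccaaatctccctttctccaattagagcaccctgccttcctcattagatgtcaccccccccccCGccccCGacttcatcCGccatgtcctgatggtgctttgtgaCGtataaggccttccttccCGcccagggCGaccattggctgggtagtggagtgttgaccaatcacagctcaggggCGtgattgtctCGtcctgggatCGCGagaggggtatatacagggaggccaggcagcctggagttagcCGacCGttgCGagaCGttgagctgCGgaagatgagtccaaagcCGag
VCX2: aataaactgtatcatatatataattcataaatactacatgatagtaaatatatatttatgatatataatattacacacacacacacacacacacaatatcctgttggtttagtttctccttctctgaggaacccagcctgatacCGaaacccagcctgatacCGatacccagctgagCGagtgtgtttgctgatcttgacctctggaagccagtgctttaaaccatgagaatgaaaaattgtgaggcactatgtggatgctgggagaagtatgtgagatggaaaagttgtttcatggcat
VCX3B: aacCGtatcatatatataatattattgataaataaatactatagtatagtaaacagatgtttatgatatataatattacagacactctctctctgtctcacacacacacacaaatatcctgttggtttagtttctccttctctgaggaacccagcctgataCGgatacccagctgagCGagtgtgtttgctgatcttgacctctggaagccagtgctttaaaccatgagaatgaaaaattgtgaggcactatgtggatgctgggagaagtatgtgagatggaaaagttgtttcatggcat
BCHE: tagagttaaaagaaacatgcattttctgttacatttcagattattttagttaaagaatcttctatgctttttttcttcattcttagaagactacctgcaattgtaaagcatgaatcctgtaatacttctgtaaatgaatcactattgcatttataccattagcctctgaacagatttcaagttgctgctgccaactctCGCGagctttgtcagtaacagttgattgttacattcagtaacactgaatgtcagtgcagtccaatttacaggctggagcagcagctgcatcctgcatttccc
ZNF516: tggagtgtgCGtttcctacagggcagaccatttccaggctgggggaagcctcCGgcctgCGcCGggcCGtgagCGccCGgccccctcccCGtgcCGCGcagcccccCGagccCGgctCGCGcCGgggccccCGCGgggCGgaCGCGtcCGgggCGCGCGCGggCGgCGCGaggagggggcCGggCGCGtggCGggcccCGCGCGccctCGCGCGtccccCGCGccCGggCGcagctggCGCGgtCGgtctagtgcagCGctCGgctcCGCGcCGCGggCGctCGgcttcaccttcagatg
COL5A1: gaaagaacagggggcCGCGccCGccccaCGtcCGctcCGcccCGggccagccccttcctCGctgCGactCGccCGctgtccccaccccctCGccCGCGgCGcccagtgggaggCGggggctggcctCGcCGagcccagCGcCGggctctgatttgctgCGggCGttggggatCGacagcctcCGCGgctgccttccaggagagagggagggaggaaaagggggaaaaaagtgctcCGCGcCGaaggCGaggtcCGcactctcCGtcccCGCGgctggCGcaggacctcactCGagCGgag
AADACL3: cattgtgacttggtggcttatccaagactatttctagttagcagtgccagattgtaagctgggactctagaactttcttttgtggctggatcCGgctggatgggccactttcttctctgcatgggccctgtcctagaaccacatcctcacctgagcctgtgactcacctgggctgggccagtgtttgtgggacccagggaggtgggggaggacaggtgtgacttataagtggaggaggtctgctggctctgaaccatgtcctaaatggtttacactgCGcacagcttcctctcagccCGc

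BCHE had 2 CG in its window, VCX2, VCX3B, and AADACL3 had 3 each, VCX had 16, COL5A1 had 36, and ZNF516 had 53. Of the 35116 promoter windows in the table, 89.0% held at least 2 CG, 81.8% at least 3, 47.5% at least 16, 12.7% at least 36, and 0.604% at least 53. Both directions held CG-poor and CG-rich windows. Of the on/off genes with a window, 2 of 6 on in R8 and 6 of 12 on in MB468 had 20 or more CG, against 41.2% of all windows. VCX2 and VCX3B aligned at 82.6% identity over their windows. The VCX window lies at a start inside the annotated span of its gene (7842262 to 7844143), and those of VCX2 and VCX3B at the outer start, so the VCX window is not the corresponding place and its CG count cannot be set against theirs. The ZNF516 window, with 53 CG, also lies at a start inside the span of its gene (76357682 to 76496419). COL5A1 had 2 windows listed, and the first is shown. DNA methylation was not measured, and no factor or mark was mapped to these windows.

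The epithelial identity of the line was kept at similar levels, while single basal and luminal markers moved apart. The gene lists here and below were chosen with earlier results of these data known, so their counts and shares are description only. Over all tested genes 26.4% were higher and 27.1% lower. Of the 14 epithelial identity genes 9 were higher and 2 lower in R8, none 2-fold, with a median log2 fold change of 0.17 against 0.00 for all genes and of -0.15 on the spike-in scale, where the direction flips. MUC1, a mucin of the apical membrane, was higher at 0.85, KRT18, a keratin of simple epithelium, at 0.58 (0.27 and not called on the spike-in scale), and ELF3, an epithelial transcription factor, was lower at -0.49. Of 18 basal markers 6 were higher and 10 lower. KRT6B, a keratin of stressed and basal epithelium, had 7144, 7207, and 6799 normalized counts in MB468 and 1748, 1762, and 1718 in R8, a log2 fold change of -2.02. KRT17 (-1.08) and KRT14 (-0.95) were lower as well, and KRT6A, a near-identical copy of KRT6B whose reads may be split, was higher at 1.98 from 23.9 to 60.6 normalized counts in MB468. Of 12 tested luminal and hormone markers 6 were higher and 3 lower, with GATA3 (0.91) and FOXA1 (0.73), factors of the luminal fate, among the higher ones. ERBB2, the receptor HER2, was not called (0.01) and was called lower on the spike-in scale (-0.31). KIT, the stem cell factor receptor of luminal progenitors, was the exception in size, with 1114, 986, and 1172 normalized counts in MB468 and 72.2, 82.8, and 69.3 in R8 (log2 fold change -3.86 ± 0.13 SE, adjusted p = 8.28e-22 from edgeR). The libraries of the lines did not overlap for KIT, as for 60.0% of all tested genes. Its ligand KITLG went the other way, with 383, 396, and 372 normalized counts in MB468 and 1826, 1676, and 2028 in R8 (2.26).

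PROM1, the membrane protein CD133 used as a progenitor marker, had the smallest p of all genes. It had 5224, 5157, and 5129 normalized counts in MB468 and 231, 271, and 250 in R8, a log2 fold change of -4.38 ± 0.06 (SE, adjusted p = 8.19e-40 from edgeR). OLFM4, a secreted glycoprotein of epithelial progenitors and inflamed mucosa, had 2015, 2024, and 2196 in MB468 and 23.8, 25.7, and 23.5 in R8 (-6.41). SPOCK2, a matrix proteoglycan, fell by 3.08 on the log2 scale. The genes with the smallest p in the other direction, beside BCHE and VCX3B, were LGALS1 (galectin-1, 1.79), SYTL2 (an effector of vesicle transport, 3.11), and EFHD2 (a calcium-binding protein, 1.75).

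Squamous differentiation genes differed in both directions. Of 20 tested members 7 were higher and 10 lower in R8, and 11 of the 17 differed at least 2-fold. That is 55% of the tested members, beside 9.62% of all genes. Because members were chosen with earlier results known, the larger share may follow from that choice. PI3, the protease inhibitor elafin, had 3113, 3064, and 3217 normalized counts in MB468 and 266, 281, and 231 in R8 (-3.58). S100A7, the psoriasin of inflamed skin, had 2679, 2857, and 2746 in MB468 and 366, 330, and 390 in R8 (-2.94). KRT4 (-2.20), KRT13 (-1.79), and LCN2 (-1.48) were lower too. Involucrin, a precursor of the cornified envelope, was higher: IVL had 16.2, 10.4, and 14.1 normalized counts in MB468 and 342, 342, and 306 in R8 (4.62). SPRR1B, another envelope precursor, was higher at 4.57, with 50.8, 42.5, and 31.4 normalized counts in R8, and SERPINB4, a protease inhibitor, was higher at 3.67. SERPINB4 was low in the libraries after 0 h, with 0 to 8.87 normalized counts in MB468 and 0 to 75.2 in R8. Its log2 ratio of group means at 0.5 h was 0.45. TCHH, trichohyalin of the hair follicle sheath, lies near IVL on chromosome 1 and was higher at 4.43, and CLCA2, a chloride channel accessory protein of epithelia, was higher at 5.92. Among genes with a mean of at least 5 CPM in R8 and no overlap of the lines, OLFML3 (4.33), LCAL1 (3.97), and PCGF2 (4.37) were also in the 10 with the largest higher values, the last, a Polycomb protein, with an SE of 1.71 and an adjusted p of 0.0407 from edgeR. The call of PCGF2 was lost when any 1 of the 6 libraries was left out, at adjusted p-values of 0.0539 to 0.119, and on the spike-in scale (4.05).

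Cell-cell junction genes were higher in R8 more often than lower, beside 26.4% higher and 27.1% lower of all tested genes. Of 28 tested junction and desmosome genes 18 were higher and 3 lower, with a median log2 fold change of 0.34, which was 0.03 on the spike-in scale, where 6 were higher and 6 lower. GJB5, a connexin of stratified epithelium, was higher at 2.16, CLDN1, a tight junction claudin, at 1.35, and PERP, a desmosome protein, at 1.02. CLDN1 had 2419, 2387, and 2465 normalized counts in MB468 and 6100, 6299, and 6132 in R8. Among 18 cadherins and other adhesion receptors 9 were higher and 6 lower. MCAM, an adhesion receptor of endothelium and melanoma, had 3402, 3172, and 3120 normalized counts in MB468 and 407, 383, and 381 in R8 (-3.05), and ICAM1 was lower at -1.33. FAT2 (2.19), PCDH7 (2.15), and PCDH18 (1.85), of the cadherin superfamily, were higher. Of 15 tested integrins 8 were higher and 3 lower, led by ITGA2 (1.06) and ITGB6 (0.98) and, downward, by ITGA9 (-1.82). Their median was 0.29, and -0.02 on the spike-in scale.

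Matrix genes differed in both directions, as did all tested genes (26.4% higher and 27.1% lower). Of 30 tested collagen and laminin chains 13 were higher and 8 lower, 5 and 7 of them at least 2-fold. Type IV collagen of the basement membrane split by gene pair: COL4A1 and COL4A2, which lie head to head on chromosome 13, were lower (-2.02 and -1.81), and COL4A5 and COL4A6, which lie head to head on chromosome X, were higher (0.55 and 1.94). COL4A5 was not called on the spike-in scale (0.24). COL5A2, the partner chain of COL5A1, was higher at 1.89, from 19.7 to 43.1 normalized counts in MB468 to 102 to 140 in R8. LAMA3 (1.22) and LAMB3 (1.07), chains of the laminin that anchors epithelia, were higher. MMP7, a matrix protease of epithelium, had 228, 316, and 283 normalized counts in MB468 and 12.7, 10.1, and 5.23 in R8 (-4.78). ADAMTS1 (-2.68) and the protease inhibitors A2M (-2.78) and PI15 (-7.39) were lower. Of 15 tested mesenchymal markers 7 were higher and 4 lower. The lower ones were TAGLN (2804, 2858, and 2926 normalized counts in MB468 and 115, 120, and 143 in R8, -4.53), LOX (-2.38), ACTA2 (-2.29), and MMP2 (-1.19). TGFBI (1.74), a matrix protein, and S100A4 (1.08), a calcium-binding protein of motile cells, were higher. ZEB1, a repressor of epithelial genes, was called higher at 1.31 and SPARC, a matrix protein, at 1.17. ZEB1 lost its call when any 1 of the 6 libraries was left out (1.18 to 1.44), with DESeq2's Wald test (1.34), and on the spike-in scale (1.01), and SPARC lost it without MB468 replicate 1 or 3 or R8 replicate 2 (0.999 to 1.07) and on the spike-in scale (0.87). Vimentin, the mesenchymal filament protein, was higher at 0.41 (VIM), and not called at 0.11 on the spike-in scale.

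**Figure D3:**
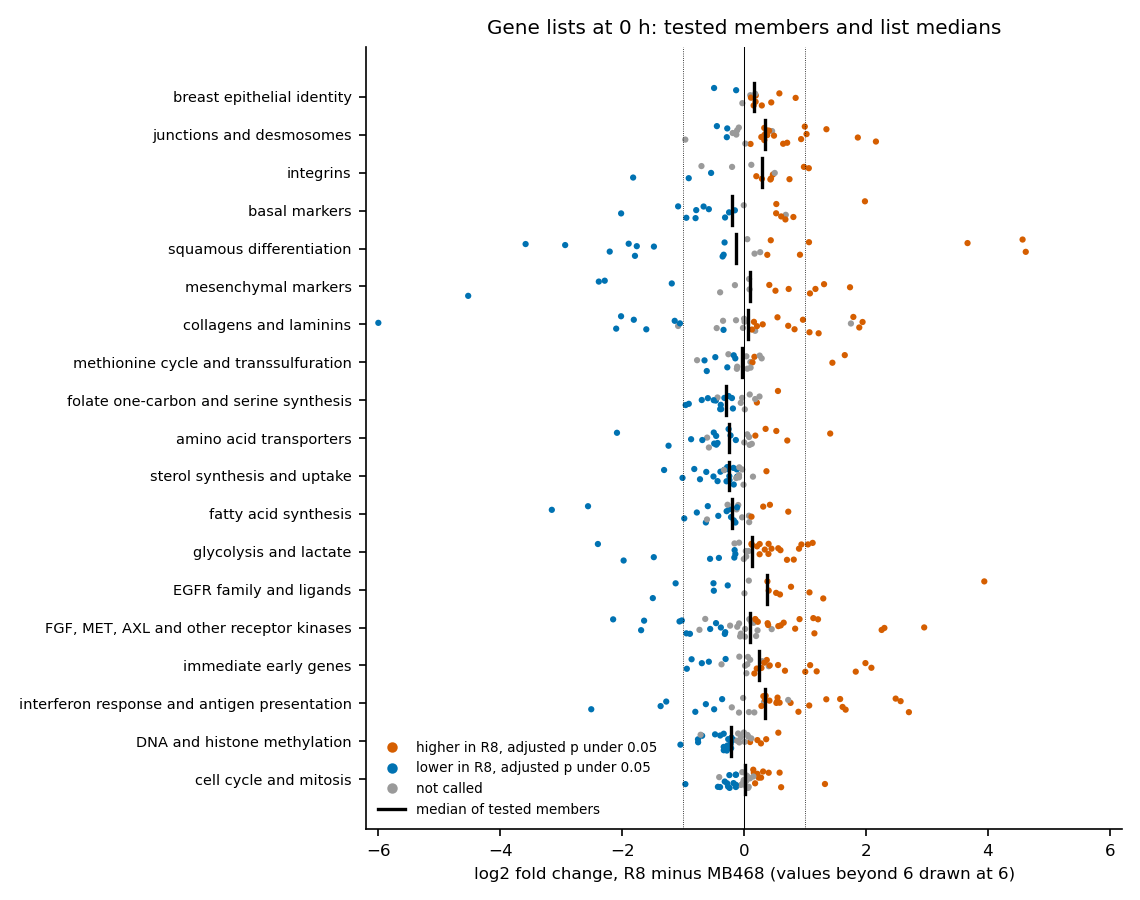
Log2 fold changes (R8 minus MB468, x axis) of the tested members of 19 gene lists, 1 point per gene, orange where called higher, blue where called lower, grey where not called, with a black bar at the list median. Most medians lie within 0.4 of 0 while members spread to both sides. Basal marker, folate and serine, amino acid transporter, sterol, fatty acid, and methylation genes are shifted to the left.

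In the Met cycle itself few transcripts differed by much. Of 20 tested genes of the Met cycle and transsulfuration 4 were higher, 6 lower, and 10 not called, with a median of -0.04. Over all tested genes 26.4% were higher and 27.1% lower. MAT2A, which makes S-adenosylmethionine in these cells, was not called (0.10), though without R8 replicate 3 it was called at 0.15 (adjusted p = 0.0176 from edgeR). MTR, the Met synthase that remethylates Hcy, was lower by little, with 1541, 1565, and 1400 normalized counts in MB468 and 1312, 1356, and 1429 in R8 (-0.14). The call of MTR was lost without MB468 replicate 1 or 2 or R8 replicate 1 or 2, at -0.11 to -0.14. AHCY, which hydrolyses S-adenosylhomocysteine to Hcy, was lower at -0.17. GAMT, a methyltransferase that makes creatine, was higher at 1.65 at a low level, 1.80 to 7.03 normalized counts in MB468 and 12.3 to 14.4 in R8, and was not called without MB468 replicate 1 (1.25). CBS and CTH, the enzymes of transsulfuration, were lower. CBS had 539, 591, and 589 normalized counts in MB468 and 411, 418, and 285 in R8 (-0.61), and CTH had 633, 755, and 845 in MB468 and 463, 546, and 403 in R8 (-0.65).

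Of 17 Met salvage and polyamine genes 3 were higher and 8 lower. SRM, which makes spermidine with a group taken from S-adenosylmethionine, was higher at 1.02, and SAT1, which acetylates polyamines for export, was lower, with 12889, 13182, and 12886 normalized counts in MB468 and 4090, 3930, and 3692 in R8 (-1.73). Folate one-carbon and serine synthesis genes were shifted down: 13 of 22 were lower and 2 higher, against 27.1% and 26.4% of all genes, with a median of -0.29 and none at 2-fold. This list, too, was chosen with earlier results known, so the contrast is no test. MTHFD1L had the largest called fall among the mitochondrial folate enzymes, from 2754, 2806, and 2770 to 1504, 1472, and 1463 normalized counts (-0.91). MTHFD2 (-0.46), SHMT2 (-0.38), PHGDH (-0.32), PSAT1 (-0.50), and ASNS (-0.69) were lower, and PSPH, of the same serine pathway, was higher at 0.56 (not called on the spike-in scale, 0.25). Of 24 amino acid transporters 12 were lower and 5 higher, with a median of -0.24. SLC43A1, a carrier of large neutral amino acids that include Met, had 890, 850, and 977 normalized counts in MB468 and 198, 264, and 175 in R8 (-2.08). SLC7A2, a carrier of cationic amino acids, was lower at -1.24, and SLC43A2, of the family of SLC43A1, at -0.87, a call that was lost when any 1 of the 6 libraries was left out (-0.63 to -1.04) and with DESeq2's Wald test (-0.88). SLC7A5, the main carrier of Met and leucine, was higher at 0.35, which was 0.04 and not called on the spike-in scale. Its partner SLC3A2 was lower at -0.14, a call lost without R8 replicate 3 (-0.09), and SLC7A8, another partner of SLC3A2, was higher at 1.41.

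In lipid synthesis more genes were lower in R8 than higher. Of 27 tested genes of sterol synthesis and uptake 18 were lower and 1 higher, against 27.1% and 26.4% of all genes, with a median of -0.24. As with the other lists, earlier results were known when it was chosen, so the contrast is no test. HMGCS1 had 11162, 11401, and 11709 normalized counts in MB468 and 5604, 5831, and 5578 in R8 (-1.01), and TM7SF2, a sterol reductase, was lower at -1.31. INSIG1, the sterol sensor partner, had 4648, 4388, and 4952 in MB468 and 4014, 3874, and 2739 in R8 (-0.39), where 1 R8 library was lower than the other two, and INSIG1 was not called in a fit to the 6 libraries alone (adjusted p = 0.12 from edgeR). Of 24 genes of fatty acid synthesis 13 were lower and 4 higher. FASN, the fatty acid synthase, was lower by little (-0.17), as were ACLY, which makes cytosolic acetyl-CoA (-0.14), and SREBF1, the factor that drives these genes (-0.11), and SCD, the stearoyl desaturase, was not called (0.08). The call of FASN was lost without MB468 replicate 1 or 2 or R8 replicate 1 or 3 (-0.14 to -0.18), that of SREBF1 without MB468 replicate 1 or 3 or R8 replicate 2 or 3 (-0.09 to -0.12), and that of ACLY without R8 replicate 3 (-0.11), and SCD was called without R8 replicate 3 (0.11). The fatty acid desaturases carried the largest differences. FADS1, the delta-5 desaturase of polyunsaturated fatty acids, had 776, 716, and 777 normalized counts in MB468 and 84.1, 75, and 96.8 in R8, 8.90-fold lower (-3.15 ± 0.10 SE, adjusted p = 5.55e-27 from edgeR). FADS2, the delta-6 desaturase, had 591, 554, and 561 in MB468 and 103, 99.6, and 83.7 in R8 (-2.56), and FADS3, the third of the cluster on chromosome 11, had 312, 367, and 378 in MB468 and 154, 215, and 169 in R8 (-0.98). The 3 neighbours were lower in the order FADS1, FADS2, FADS3, and the SEs of 0.10, 0.12, and 0.12 are smaller than the steps between them.

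Outside synthesis the lipid genes were mixed, as were all tested genes (26.4% higher and 27.1% lower). Of 32 genes of fatty acid oxidation 11 were higher and 7 lower, with CRAT, the carnitine acetyltransferase, at 991, 1000, and 1082 normalized counts in MB468 and 134, 167, and 110 in R8 (-2.89), and EHHADH, a peroxisomal enzyme, at 1.14. CPT1A, the gate of mitochondrial oxidation, was higher at 0.14, which was not called without MB468 replicate 3 (0.12) and turned to -0.17, not called, on the spike-in scale. Of 38 phospholipid and plasmalogen genes 9 were higher and 15 lower. AGPAT4, an acyltransferase of phosphatidic acid synthesis, was lower at -2.74, ETNK2, an ethanolamine kinase, at -1.22, and CHKA, the choline kinase that opens phosphatidylcholine synthesis, at -0.48, and FAR2, which makes fatty alcohols, was higher at 1.55. PEMT, which methylates phosphatidylethanolamine with S-adenosylmethionine, was not called (-0.12) and was called lower on the spike-in scale (-0.43). Of 19 lipid droplet and triglyceride genes 4 were higher and 6 lower, with MGLL, the monoglyceride lipase, at 1.39 and CIDEC, a protein of large droplets, at -1.35. PLIN2, a droplet coat protein, was not called (0.00, or -0.32 on the spike-in scale). PTGIS (1.61) and PTGS1 (-1.03) were the called genes of 15 in eicosanoid synthesis that differed 2-fold.

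Glycolysis and redox genes had members on both sides, at counts to be read beside 26.4% higher and 27.1% lower of all tested genes. Of 31 tested genes of glycolysis and lactate transport 17 were higher and 8 lower, with a median of 0.13 that was -0.18 on the spike-in scale. ENO1 (0.90), the glucose carrier SLC2A1 (0.94), LDHA (0.70), and the lactate exporter SLC16A3 (1.12) were higher, and ALDOC (-1.98), SLC2A10 (-2.40), and PDK3 (-1.48) were lower. PGD, a dehydrogenase of the pentose phosphate pathway, had 12652, 12884, and 13187 normalized counts in MB468 and 34138, 36286, and 33618 in R8 (1.43). TKT, a later enzyme of the pathway, was not called (-0.01) and was called lower on the spike-in scale (-0.32). Of 33 genes of glutathione metabolism and NRF2 targets 12 were higher and 14 lower, with HMOX1 (-0.93), TXNRD1 (-0.64), and NQO1 (-0.23) among the lower ones. GGT5, which cleaves glutathione conjugates, was lower at -3.75. Of 31 genes of xenobiotic and aldehyde metabolism, a list that holds BCHE, FMO2, and AADACL3, 11 were higher and 11 lower, with CYP24A1, which inactivates vitamin D, at -4.14 and ALDH3A1 at 2.11. Of 6 tested metallothionein and zinc transport genes 3 were higher and 1 lower, and MT2A was not called (-0.02) and was called lower on the spike-in scale (-0.33).

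Growth factor receptors and ligands differed in both directions, as did all tested genes (26.4% higher and 27.1% lower). EGFR had 49744, 50911, and 47813 normalized counts in MB468 and 68955, 73524, and 71294 in R8 (0.53). On the spike-in scale this was 0.22 and not called. Of 15 genes of the EGFR family and its ligands 8 were higher and 5 lower. EPGN, the ligand epigen, had 44.9, 47.8, and 59.0 normalized counts in MB468 and 867, 746, and 672 in R8 (3.94), and TGFA had 424, 465, and 505 in MB468 and 1135, 1149, and 1127 in R8 (1.30). AREG was higher at 1.07, and EREG, the ligand encoded between EPGN and AREG on chromosome 4, was lower at -1.50. The receptors of insulin and insulin-like growth factor were lower, as was an adaptor of both. INSR, the insulin receptor, had 1417, 1460, and 1440 normalized counts in MB468 and 355, 303, and 309 in R8 (-2.15). IGF1R had 1350, 1352, and 1322 in MB468 and 425, 469, and 396 in R8 (-1.64), and IGFBP5, an IGF binding protein, had 55836, 55875, and 47211 in MB468 and 17047, 15095, and 17171 in R8 (-1.69). GRB10, an adaptor that binds both receptors and dampens their signal, had 419, 422, and 454 in MB468 and 3.97, 8.95, and 0 in R8 (-6.56 ± 0.21 SE, adjusted p = 1.35e-26 from edgeR). IRS1 (0.19) and IRS2 (0.39), substrates of both receptors, were higher, but IRS1 was not called without MB468 replicate 1 or 3 or R8 replicate 2 or 3 (0.12 to 0.21) and stood at -0.11, not called, on the spike-in scale, where IRS2 (0.07) was not called either. Over the 43 tested members of the list of other receptor kinases and ligands 16 were higher and 12 lower. RET had 13.5, 14.3, and 12.7 normalized counts in MB468 and 105, 99.6, and 115 in R8 (2.96), ROR1 was higher at 2.30, and MET at 0.60. KDR, a vascular endothelial growth factor receptor known from endothelium, had 6570, 6481, and 5800 in MB468 and 1040, 934, and 972 in R8 (-2.67). Of the 6 tested endothelial markers KDR was the 1 called lower, 1 was called higher, and 4 were not called. VWF and CDH5, which define endothelium, were among those not called. CSF1R, the macrophage growth factor receptor, was higher at 1.92 and CD14, a monocyte receptor, lower at -1.61, and PTPRC, the common leukocyte antigen, was not tested. The part of other cells in these values was not tested beyond those markers.

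**Figure D4:**
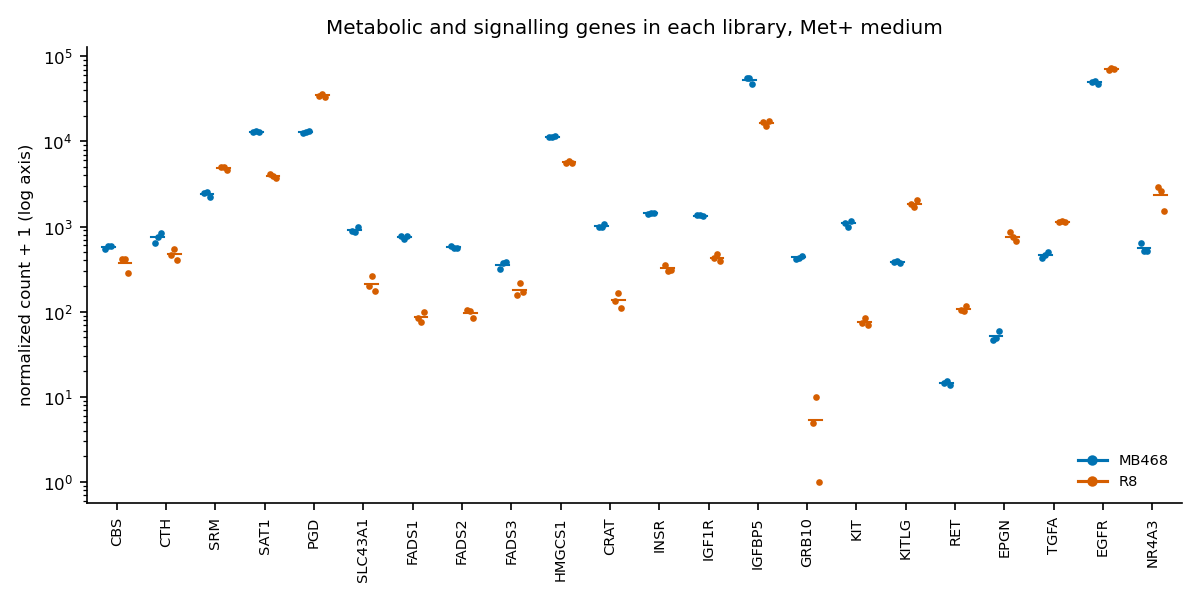
Normalized counts plus 1 (log axis) of 22 metabolic and signalling genes, with 1 point per library, blue for MB468 and orange for R8, and a bar at the mean of 3. The points of a line lie close together for most genes, with R8 lower for FADS1, FADS2, CRAT, INSR, IGF1R, GRB10, and KIT, R8 higher for PGD, KITLG, RET, and EPGN, and a wider spread of R8 for NR4A3 (1502 to 2918).

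Immediate early genes, which answer growth factors and stress within minutes, were higher in part. Of 28 tested members 14 were higher and 5 lower, 6 of them at least 2-fold higher, with a median of 0.25 that was -0.06 on the spike-in scale. NR4A3 had 633, 520, and 514 normalized counts in MB468 and 2918, 2640, and 1502 in R8 (2.09 ± 0.36 SE), NR4A1 had 2816, 1937, and 2292 in MB468 and 6001, 5640, and 3202 in R8 (1.08), and KLF4 was higher at 1.83. FOS was higher at 0.56 (0.24 and not called on the spike-in scale), and EGR1 (0.04) and MYC (0.05) were not called. R8 replicate 3 was the lowest R8 library for NR4A1, NR4A3, and INSIG1. Of 22 genes of MAPK feedback 8 were higher and 6 lower, beside 26.4% and 27.1% of all tested genes. SPRY1 stood at 1.22 and DUSP5 at -1.18, and DUSP6 was not called (0.12).

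Developmental pathways had members on both sides, at counts to be read beside 26.4% higher and 27.1% lower of all tested genes. Of 34 tested genes of transforming growth factor beta and bone morphogenetic protein signalling 14 were higher and 10 lower, with ID4 (1541, 1419, and 1630 normalized counts in MB468 and 231, 290, and 235 in R8, -2.60), a helix-loop-helix inhibitor of basal mammary cells, lower and the receptors ACVR1C (2.05) and TGFBR3 (1.62) higher. Of 32 genes of WNT signalling 9 were higher and 10 lower. TCF7L1, a repressor of WNT targets, had 1660, 1648, and 1561 normalized counts in MB468 and 102, 97.3, and 95.5 in R8 (-4.04), WNT4 was lower at -2.51, and the inhibitor DKK1 was higher at 2.73 from 2.39 to 12.7 normalized counts in MB468. Of 19 NOTCH genes 6 were higher and 8 lower, with HES2 at 3.79, HEY2 at -1.29, and HES1 at -0.65, which was not called in a fit to the 6 libraries alone (adjusted p = 0.0543 from edgeR). Of 53 tested HOX and other developmental factors 18 were higher and 17 lower. MSX1 was lower at -5.13, from 14.3 to 18.8 normalized counts in MB468 to 0 or 0.793 in R8, SOX11 was lower at -2.77, and RUNX3 was higher at 1.35. Of 15 tested cancer-testis genes 7 were higher and 5 lower: beside the VCX copies these held MAGED1 (2098, 2194, and 2101 in MB468 and 186, 181, and 124 in R8, -3.67), XAGE2 (-2.75), and MAGEB1 (-2.72).

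Inflammatory and interferon genes also differed in both directions, beside 26.4% higher and 27.1% lower of all tested genes. Of 27 tested chemokines, cytokines, and other NF-kB genes 9 were higher and 10 lower. SAA1, an acute phase protein, had 341, 355, and 275 normalized counts in MB468 and 20.6, 21.3, and 17 in R8 (-4.03), IL1RN, the interleukin-1 antagonist, was higher at 3.22, and CXCL8 was not called (0.17). CCL26, an eosinophil chemokine, was lower at -6.02. Of 33 genes of the interferon response and antigen presentation 19 were higher and 7 lower, 8 and 3 of them at least 2-fold, with a median of 0.35 that was 0.06 on the spike-in scale. OAS1, a sensor of double-stranded RNA, had 31.4, 44.6, and 39.4 normalized counts in MB468 and 263, 236, and 184 in R8 (2.57), IFI44 was higher at 2.70, and OASL at 2.49. IFITM1 (-2.51), HLA-B (-1.37), and IRF7 (-1.28) were lower, the last with a call that was lost without MB468 replicate 1 (-0.77), R8 replicate 1 (-0.78), or R8 replicate 2 (-1.19), so the members did not move together.

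Cell cycle genes differed little, at counts to be read beside 26.4% higher and 27.1% lower of all tested genes. Of 40 tested members 11 were higher and 13 lower, with a median of 0.01. MKI67, the proliferation antigen, was lower at -0.13, a call lost without MB468 replicate 1 or 2 or R8 replicate 1 (-0.11 to -0.12), and CCND1, cyclin D1, was not called (0.01, or -0.31 on the spike-in scale, where it was called lower). CDKN1A, the inhibitor p21, had 802, 833, and 909 normalized counts in MB468 and 2401, 2240, and 1681 in R8 (1.33). MCM7, a subunit of the replicative helicase, was lower at -0.96, the largest difference among the MCM subunits tested, which otherwise lay between -0.24 and 0.07. Genes that write, read, or erase DNA and histone methylation were shifted down, with 20 of 35 lower and 5 higher and a median of -0.21. Over all tested genes 27.1% were lower and 26.4% higher. The methylation list, too, was chosen with earlier results known, so the contrast is no test. CBX7 (-1.04), DNMT3A (-0.76), and EZH2 (-0.69) were lower, and DNMT3B was not called (0.12). DNMT1, the maintenance methyltransferase, was higher at 0.10, which was not called without MB468 replicate 3 or R8 replicate 1 or 2 (0.07 to 0.10) and turned to -0.21, not called, on the spike-in scale. On the spike-in scale 26 were lower and 0 higher. Of 29 stress response and ATF4 target genes 8 were higher and 9 lower, none 2-fold, with a median of 0.01. CEBPD (0.99) and CEBPB (-0.98) were the ends of the called range, the former not called without MB468 replicate 2 (0.73), and ATF4 itself was lower at -0.14. DDIT3, the factor CHOP, was higher at 0.32, a call lost without MB468 replicate 1 or 3 or R8 replicate 1 or 2 (0.24 to 0.32), with DESeq2's Wald test (0.32), and on the spike-in scale (0.01). HSPA5, the chaperone BiP, was not called (0.09), though it was without R8 replicate 3 (0.11).

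Some of the differences followed position. The 14609 tested genes with a RefSeq position on GRCh38.p14 were cut into 717 windows of 20 neighbours, and the medians of the windows ranged from -0.68 to 1.31. Runs of at least 5 consecutive windows at 0.2 or more to one side were found at 6 places. They were found in the values they describe, so no test is given. The longest rise took in the short arm of chromosome 7, with 13 windows from 192571 to 64435520: 218 of its 260 genes were higher, 5 lower, and 79 at least 2-fold higher, with a median of 0.81, or 1.76-fold. GRB10 lies inside this run at 50590068 and was 94.2-fold lower, and EGFR lies in it at 55019017 (0.53). The distal long arm of the same chromosome showed the reverse, with 15 windows from 98106862 to 152676141: 194 of 300 genes were lower and 18 higher, with a median of -0.45. MCM7 at 100092728 and EZH2 at 148807383 lie there.

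The other run of higher genes took 7 windows of chromosome 1 from 1292391 to 16352480, with 115 of 140 genes higher, 5 lower, and a median of 0.68. Its last 3 windows, from 9922118, had a median of 1.13, or 2.20-fold, and 40 of their 60 genes were at least 2-fold higher. SRM at 11054589, PGD at 10399064, and EFHD2 at 15409888 lie in that stretch, and ENO1 at 8861000 and HES2 at 6415232 lie before it in the run. The differences of SRM (1.02) and PGD (1.43) lay to either side of that median. AADACL3 and C1orf158 lie in the same stretch, at 12716110 and 12746200, and were at the limit of detection in R8. Runs of lower genes were found on chromosome 13 (9 windows, 112 of 180 genes lower, median -0.37), chromosome 19 (6 windows, 60 of 120 lower, median -0.30), and chromosome 20 (7 windows, 90 of 140 lower, median -0.43). Shorter stretches missed the rule of 5 windows. At the end of chromosome 6, windows from 139028745 to 161274061 had medians of -0.32, -0.35, -0.38, and -0.51, and AGPAT4 is the last gene there. Windows from 24649979 to 28137316 on chromosome 6 had medians of 0.47, 0.47, and 0.32. Over the whole of chromosome 13, 54.7% of tested genes were lower, and over chromosome 20, 57.0%, against 27.1% of all genes. The higher runs held 127 of the 774 genes at least 2-fold higher, 16.4% of them, and 2.71% of the tested genes. The lower runs held 70 of the 644 at least 2-fold lower, 10.9% of them, and 5.02% of the tested genes. The runs were picked on these same values, so the larger shares follow from that choice and are description only. On the spike-in scale the medians were 0.51 on chromosome 7 and 0.37 on chromosome 1 for the higher runs. DNA was not measured.

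**Figure D5:**
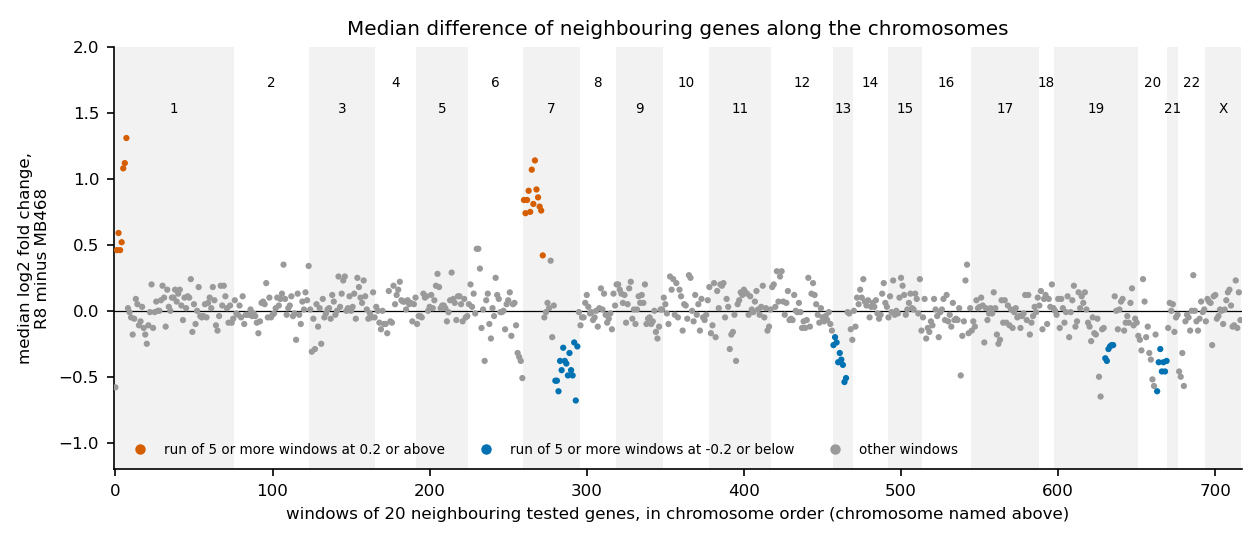
Median log2 fold change (R8 minus MB468, y axis) of each of 717 windows of 20 neighbouring tested genes, in order along the chromosomes named above the points (x axis). Orange windows belong to the 2 runs of higher genes, on chromosomes 1 and 7, blue windows to the 4 runs of lower genes, on chromosomes 7, 13, 19, and 20. Grey windows are the rest, most of them near 0. Exceptions include shorter stretches on chromosome 6, one higher (0.32 to 0.47) and one lower at its end (-0.32 to -0.51).

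The 18 libraries of both lines in Hcy medium, at 0.5, 2, and 12 h, gave the lines' levels in samples outside the 0 h means, although they shared the filter and the estimate of the spread with the 0 h calls. Of the 774 genes at least 2-fold higher at 0 h, 96.3% were higher in R8 on average at 0.5 h, 96.6% at 2 h, and 84.0% at 12 h, and 66.3%, 71.8%, and 55% were at least 2-fold higher. Of the 644 at least 2-fold lower, 97.5%, 98.8%, and 95.5% were lower at those times, and 79.5%, 77.5%, and 75.8% at least 2-fold. These are counts of the direction of means, with no test, and medium and time changed as well. The 6 runs kept the sign of their median at each time, with the run of chromosome 7 at 0.81, 0.82, and 0.64 and that of chromosome 1 at 0.58, 0.70, and 0.71. Of the on/off genes, 6 of 7 on in R8 and 11 of 18 on in MB468 stayed above 1 CPM in all 9 later libraries of their line, and 4 of 7 and 14 of 18 had at most 9 counts in total over the 9 later libraries of the other line. VCX2 had 0 counts in all 9 later MB468 libraries, and TCEAL8 in all 9 later R8 libraries, and BCHE had 27 counts over the 9 of MB468. GRB10 lay between 387 and 458 normalized counts in the later MB468 libraries and between 1.21 and 9.06 in those of R8. INSR stood at log2 ratios of group means of -1.86, -2.16, and -2.65 at 0.5, 2, and 12 h, and PROM1 at -4.54, -4.37, and -4.45. FADS1 stood at -3.41, -3.05, and -1.78, with 150 to 894 normalized counts in the later MB468 libraries and 47.4 to 94.9 in R8. NR4A3 did not keep its difference, with log2 ratios of 0.96, 0.03, and -0.73, and EGFR stood at 0.37, 0.41, and -0.13.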

How the data were processed

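The authors aligned poly(A) RNA-seq reads to GRCh38 joined with spike-in sequences using HISAT2 2.1.0 and counted them per gene with featureCounts (Subread 1.5.3), per the labels and the study's methods. The deposited raw read counts were used, with no normalization by the authors. A second deposited table, of counts divided by size factors, and a table of the authors' own comparison (fold changes and p-values) were not used.

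Lines and media were taken from the labels, 3 libraries a group. All 24 libraries were fitted with 8 group means in edgeR 4.0.16 (R 4.3.3, limma 3.58.1), with TMM scaling, its filter on low counts, and the quasi-likelihood test of R8 against MB468 at 0 h, with Benjamini-Hochberg adjustment. The 0 h libraries were the only ones tested against each other. The rest share the estimate of the spread and gave ratios of the lines at later times, with no test. The procedure was tested on simulated data. DESeq2 1.42.0, other scalings and filters, thinned counts, a replicate block, and leaving out each library were the alternatives.

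The genes named were, in each direction, the 10 called genes of largest change among those with a mean of at least 5 CPM in the higher line and no overlap of the lines, the 5 of smallest p, the on/off genes, and members of gene lists, those with the largest changes first, and some list members are not reported here by name. The members and lists were chosen with earlier results of these data known. Values per list are counts and medians, with no test of a list. Positions and promoter windows are RefSeq's on GRCh38.p14, and 25332 genes were matched by Entrez ID, 12 by symbol, 674 by synonym, and 627 not at all.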

Additional observations from a re-analysis of the deposited data

How the results depend on the processing

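The count of called genes stayed between 7096 and 7947 over the alternatives at the same threshold, and 6395 were called at an adjusted p of 0.01. No gene called at 0 h was called in the opposite direction under any of them. With spike-in totals as library sizes, 1144 genes were called higher and 6495 lower, 453 and 1127 of them at least 2-fold, and 5132 of the 7883 calls were shared. With at least 10 counts required in every library, which removes genes absent from one line, 681 genes differed at least 2-fold (395 higher, 286 lower), and no on/off value can be given. Allowing 10 counts in the line that lacked the gene in place of 3 gave 53 on/off genes, 16 on in R8 and 37 on in MB468. Leaving out 1 library gave 7096 to 7385 calls, 1356 to 1426 at least 2-fold, and 26 to 33 on/off genes, with 24 of the 25 found again without MB468 replicate 2 and all 25 without any other library. Replicate numbers did not pair the samples: the deviations of same-numbered libraries of the lines correlated at 0.158, -0.236, and -0.129, and a fit with the replicate block called 7799 genes, 7768 of them as before. Among named genes called on at least 1 of the scales, the sign turned on the spike-in scale for CCND1 (-0.31), CPT1A (-0.17), DNMT1 (-0.21), EPCAM (-0.17), ERBB2 (-0.31), IRS1 (-0.11), and PLIN2 (-0.32). Of 2973 values of the 218 named genes under the alternatives, 2871 stayed called in the same direction or stayed not called. The call was lost in 84 and gained in 11, and 7 turned. Where a value was called in neither fit, its direction was not compared. Calls lost beyond those given beside the genes were DDIT3, IRS1, SLC43A2, and ZEB1 under the replicate block (adjusted p 0.0545, 0.051, 0.0505, and 0.0548 in that order, from edgeR), DDIT3, DNMT1, SLC43A2, and ZEB1 without the filter, DDIT3, HES1, and INSIG1 with thinned counts, and DDIT3 in the 6 libraries alone. Calls gained were HSPA5 under the replicate block, HSPA5, MAT2A, and SCD with thinned counts, and MAT2A in the 6 libraries alone, beside those given with the genes. The cause of the shift on the spike-in scale was not tested. With 3 libraries a line, 1 clone, and no sign of separate cultures, the p-values speak to these samples, and at 16111002 counts in the smallest library a gene with few counts cannot be placed.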
